A study of Mus musculus with 10 samples.

Results

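Sox2 and Oct4, each induced alone in the adult mouse ileum, were compared directly with each other: 2 arrays of TetON-Sox2 mice given doxycycline (DOX) against 2 arrays of TetON-Oct4 mice given DOX, 4 of the 10 arrays of the series. The arrays were chosen by genotype and treatment alone. In TetON mice a transgene is transcribed once DOX has activated the regulator rtTA. All mice were C57BL/6 and 6 to 8 weeks old, and both groups drank 2 mg/ml DOX with 1% sucrose for 2 days (Sox2 +DOX and Oct4 +DOX). Untreated TetON-Sox2 mice (Sox2 -DOX) and DOX-treated rtTA mice without the Sox2 transgene (rtTA +DOX) served as controls, and the remaining group carried both transgenes (Sox2xOct4 +DOX). Each of these also had 2 arrays. RNA came from whole pieces of ileum, and no label or header used here names the promoter that drives rtTA.

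Sox2 and Oct4 (gene symbol Pou5f1) are DNA-binding transcription factors that act together in early embryonic cells, where Sox2 binds through an HMG box and Oct4 through a POU domain. After birth Sox2 remains in the epithelium of the oesophagus and stomach, and the epithelium of the intestine is instead governed by Cdx2. The ileum absorbs nutrients and bile acids through the brush border of its enterocytes, and Paneth cells at the base of its crypts secrete alpha-defensins.

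Levels are log2 processed signals minus the array's 75th percentile, and a difference is the mean of Sox2 +DOX minus the mean of Oct4 +DOX, so a positive value means higher with Sox2. Genes were tested with limma across all 10 arrays and called at a Benjamini-Hochberg adjusted p under 0.05. With 2 arrays a group the median standard error of a difference was 0.393. The labels number the replicates without saying that they are separate animals, so p-values measure the spread between these arrays. Both Sox2 groups lay on slide 1, the rtTA and double-transgenic groups on slide 2 and Oct4 +DOX on slide 3, so slide and group cannot be told apart in the direct comparison. Values of Sox2 +DOX against Sox2 -DOX, within slide 1, and of Oct4 +DOX against rtTA +DOX, across slides, are therefore given beside it. These control comparisons are unlike. Sox2 -DOX mice had neither DOX nor sucrose, so the Sox2 comparison holds the treatment as well as the transgene. The Oct4 comparison is matched for DOX and sucrose but crosses slides, and its arrays differ in sex-linked genes (below). Both share arrays with the direct comparison. In RNA from whole tissue, fewer cells of a type and less RNA per cell cannot be told apart.

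Of 19051 genes tested, 1306 (6.86%) differed between Sox2 +DOX and Oct4 +DOX. Of these, 530 (2.78%) were higher with Sox2 and 776 (4.07%) were higher with Oct4, and 709 differed by over 4-fold when a group not above background was taken at its bound. Sox2 +DOX differed from its untreated control at 1494 genes (7.84%; 3.03% higher and 4.81% lower). Higher genes made up 38.7% of these, a share that was 52.8% with median scaling. Oct4 +DOX differed from rtTA +DOX at 192 genes (1.01%; 0.724% higher and 0.283% lower). Between the control groups 0 genes were called with limma, with 1069 at an unadjusted p under 0.05. This does not show that the controls were alike, because the test uses a spread shared by all groups. The Y-linked gene Eif2s3y, which split the Oct4 +DOX arrays, differed at least 461-fold between the controls and was not called (limma adjusted p = 0.45). The root mean square difference between group means was 1.14 between Sox2 +DOX and Oct4 +DOX and also 1.14 between Sox2 +DOX and Sox2 -DOX, 0.86 between Oct4 +DOX and rtTA +DOX, and 0.64 between the control groups. The rtTA mean lay nearer to Oct4 +DOX than to Sox2 +DOX for 941 of the 1306 called genes, or 72.1%, and for 63.7% of all genes tested. The count of calls rests on single arrays: it was 352 without Sox2 +DOX replicate 1, 866 without Oct4 +DOX replicate 1 and 421 without Oct4 +DOX replicate 2, and 258 genes kept their call whichever of the 4 arrays was left out. It was 232 when each group was first set against its own control.

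**Figure D1:**
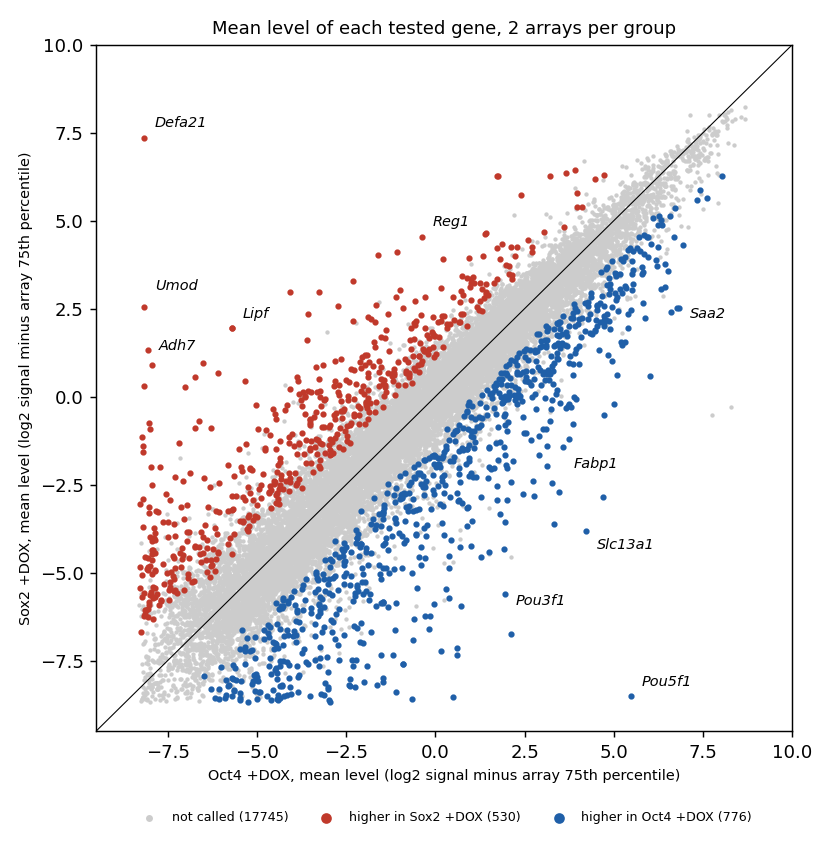
Mean level of each of the 19051 tested genes in Oct4 +DOX (x axis) and Sox2 +DOX (y axis), as log2 signal minus the array's 75th percentile, with 2 arrays per group and the line of equal levels. The 530 called genes above the line were higher in Sox2 +DOX and the 776 below it higher in Oct4 +DOX, with Defa21 and Pou5f1 farthest from the line.

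Pou5f1 itself checked the Oct4 label. Its probe (mm8, chromosome 17, 35118388 to 35118448) read 6.20 and 4.79 on the Oct4 +DOX arrays, and -8.52 and -8.51 on the Sox2 +DOX arrays, where it was not well above background. The Oct4 level was at least 3680-fold higher (log2 difference -14.01 ± 0.62 SE; limma adjusted p = 6.2e-05). Double-transgenic arrays read 2.64 and 0.92, and all control arrays read -7.97 or below. The Sox2 probe (mm8, chromosome 3, 34843400 to 34843459) read -8.28 and -8.18 with Sox2 induced, and 0 arrays had it well above background. No label or header used here says if the Sox2 transgene holds the bases under that probe, so it does not check the Sox2 label. The same held for the Nanog probe, and neither gene was tested. Sox21, a Sox family gene found in foregut epithelium, read 3.33 and 1.40 on the Sox2 +DOX arrays and -3.28 and -3.88 on the Oct4 +DOX arrays. It was 61.7-fold higher with Sox2 (5.95 ± 0.66 SE; limma adjusted p = 0.0027), and the control arrays read between -4.92 and -3.57. This was the brightest of 3 Sox21 probes, and the probes disagreed in size, with differences of 4.72 and 0.72 at the others.

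Among the 12 largest differences in favour of Sox2, genes of the stomach and of alcohol and aldehyde metabolism read at or near background with Oct4. Adh7, an alcohol dehydrogenase of the upper digestive tract, read 1.41 and 1.26 with Sox2 and -8.25 and -7.85 with Oct4, at least 159-fold apart (limma adjusted p = 0.00018). Aldh3a1, an aldehyde dehydrogenase of stomach and cornea, read 1.05 and 0.78 against -8.14 and -7.73, at least 119-fold apart (limma adjusted p = 0.00017). Umod, which encodes uromodulin of the kidney, read 2.92 and 2.16 against -8.34 and -7.99, at least 366-fold apart (limma adjusted p = 0.0009). In each of these genes the Oct4 arrays stood with the controls and did not overlap with the Sox2 arrays. Lipf, the gastric lipase, read 3.11 and 0.76 with Sox2 and -6.02 and -5.36 with Oct4, a 197-fold difference (limma adjusted p = 0.0013). It read 3.56 and 4.68 on the arrays with both transgenes.

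The other genes of this group were Dynap, Slc16a12 (a creatine transporter), Wfdc18, Asic5 (an ion channel that responds to bile acids), Nepn, Pdilt, Abo (the blood group glycosyltransferase) and Defa21. The 11 genes other than Defa21 rose in Sox2 +DOX against Sox2 -DOX, and none of the 11 passed the test in Oct4 +DOX against rtTA +DOX. The rise was 43.6-fold for Wfdc18 and 165-fold for Lipf. Where Sox2 -DOX was not above background it has a bound, from at least 28.1-fold for Abo to at least 360-fold for Umod. Leaving out each of the 4 arrays in turn kept 11 of the 12 calls, and Slc16a12 lost its call without Sox2 +DOX replicate 1.

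Of the 12 largest differences in favour of Oct4, some were called against the control on the Oct4 side, some on the Sox2 side, 1 on both and some on neither. Asb9, which encodes a substrate adaptor of ubiquitin ligases, read -0.40 and -0.93 with Oct4 and -8.57 and -8.59 with Sox2, at least 51.5-fold apart (limma adjusted p = 0.00047). Tuba8, an alpha-tubulin, read -0.09 and 1.30 against -8.02 and -6.68, at least 124-fold apart (limma adjusted p = 0.00039). Pou3f1, a POU factor related to Oct4, read 1.02 and 2.86 against -5.66 and -5.57, a 188-fold difference (limma adjusted p = 0.00068). In Oct4 +DOX against rtTA +DOX, Asb9 rose at least 68.9-fold, Tuba8 154-fold, Pou3f1 91.2-fold and Adgrf1, an adhesion receptor, at least 50.7-fold. None of these genes passed the test in Sox2 +DOX against Sox2 -DOX. On the arrays with both transgenes Asb9, Tuba8, Pou3f1 and Adgrf1 read -3.83 or below.

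Slc13a1, the sulfate transporter of the brush border, was called on the Sox2 side. It read 4.90 and 3.55 with Oct4, -5.17 and -2.50 with Sox2, and between 4.66 and 5.13 in the controls, a 266-fold difference between the induced groups (limma adjusted p = 0.0074). Cyp3a25, a cytochrome P450, and Ggt1, which cleaves glutathione, were likewise lower in Sox2 +DOX than in Sox2 -DOX, by log2 differences of -8.93 and -7.41. They did not pass the test in Oct4 +DOX against rtTA +DOX (-2.04 and -0.77). Cyp3a25 read -8.52 and -5.76 with Sox2 and was well above background on only 1 of these arrays, so its size is uncertain. Ccdc151, which serves the assembly of motile cilia, changed on both sides: it fell at least 4.11-fold in Sox2 +DOX, where it was not above background, and rose 21.0-fold in Oct4 +DOX. Krt35, a hair keratin, passed the test against its control only in the Sox2 comparison (at least 10.9-fold lower; limma adjusted p = 0.037). Ccl24, a chemokine for eosinophils, and Rgn, a calcium-binding lactonase, passed it against neither control. Rgn lost its call in the direct comparison without Sox2 +DOX replicate 1 or Oct4 +DOX replicate 2, and the other 11 calls held with each array left out.

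**Figure D2:**
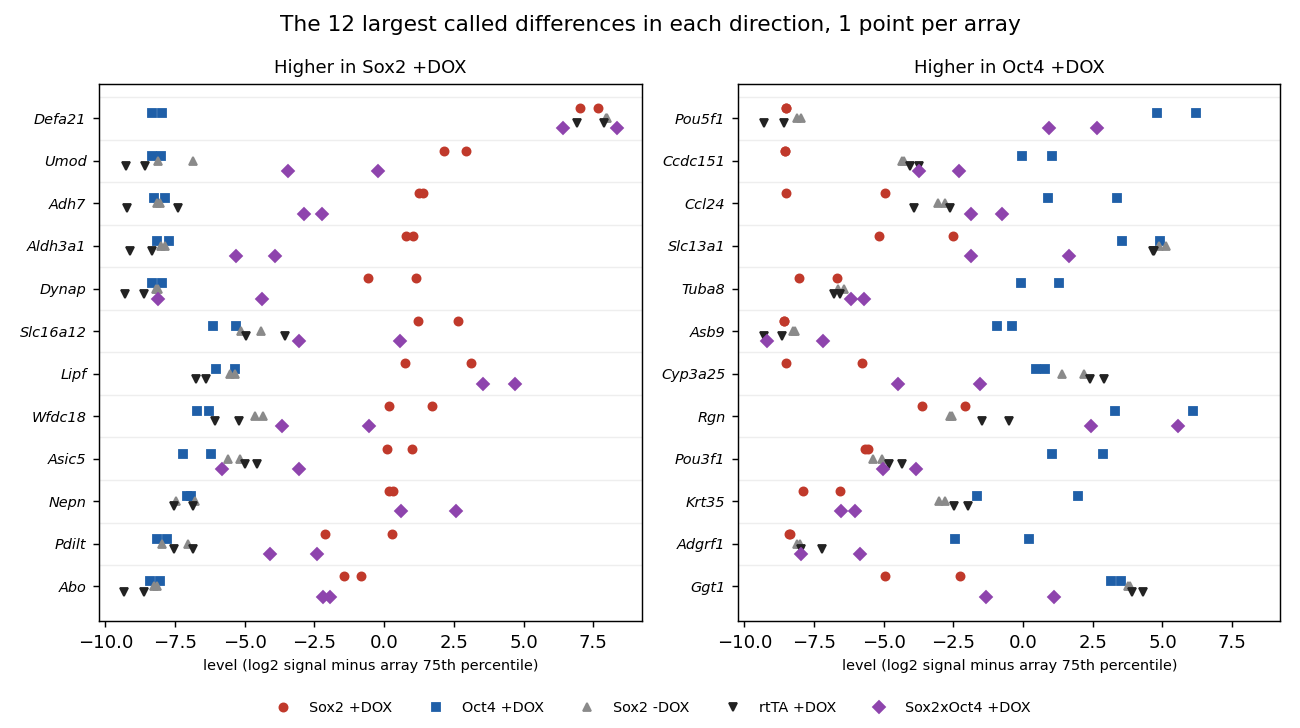
Level of the 12 genes with the largest called difference in each direction on every array (x axis, log2 signal minus the array's 75th percentile; 1 point per array, 2 per group). On the left, Oct4 +DOX lies nearer to the controls than to Sox2 +DOX for every gene but Defa21. For Asic5, Slc16a12 and Wfdc18 it lies below the controls. On the right, the controls lie with Sox2 +DOX (as for Asb9 and Tuba8), with Oct4 +DOX (as for Slc13a1 and Ggt1) or between the groups (as for Ccdc151).

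Bdnf, a neurotrophin, was picked after its values were seen because its adjusted p equalled the smallest in the comparison. It read -1.55 and -1.72 with Oct4 and -8.27 and -8.08 with Sox2, at least 26.3-fold apart (limma adjusted p = 6.2e-05), and rose by 4.22 in Oct4 +DOX against rtTA +DOX.

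The starts of these genes were searched for the letters that Oct4 and Sox factors are known to bind, because the direct comparison sets one factor against the other. RefSeq promoter sequences (GRCm38.p6) matched 20 of the 28 genes looked up, which were the 24 largest with Sox2, Sox21, Cdx2 and Nanog, and the 250 bases before the start were read on both strands. The octamer ATGCAAAT stood in 1 of the 20, that of Cdx2, and in 1.61% of all 27025 promoters. The Sox letters ACAAAG (16.5% of all promoters) or ACAATG (11.0%), which do not contain the octamer, stood in 6 of 9 genes higher with Sox2, in 5 of 7 genes higher with Oct4 and in 25.5% of all promoters. The windows below show the octamer of the intestinal master factor, a Sox match in the most gastric gene of the Sox2 side and matches in genes raised with Oct4, with the match in capitals. Each is written 5′ to 3′ on the strand of the gene.
Cdx2 (chr5:147307373-147307412, minus strand): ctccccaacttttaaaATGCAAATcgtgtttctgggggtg
Lipf (chr19:33961023-33961062, plus strand): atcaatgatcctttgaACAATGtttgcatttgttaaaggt
Tuba8 (chr6:121210631-121210670, plus strand): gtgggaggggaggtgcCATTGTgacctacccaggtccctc
Asb9 (chrX:164497834-164497873, plus strand): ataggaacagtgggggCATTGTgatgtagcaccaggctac
A match is a description of letters in this window. Sox matches stood before genes of both directions, and Cdx2, with the octamer, did not pass the test.

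Genes of absorption were lower with Sox2 than with Oct4. Of 31 tested genes of the brush border and of digestion, 18 were lower with Sox2 and none higher. Of all genes tested 4.07% were lower and 2.78% higher. The median difference was -2.32 against -0.06 over all genes tested. The mean level of the list was 0.17 and 2.07 on the Sox2 arrays and 3.55 and 4.08 on the Oct4 arrays, and 3.87 to 4.37 on the control arrays. The Sox2 arrays were the lower ones and differed among themselves by more than the Oct4 arrays did. Against Sox2 -DOX, which was untreated, 17 of the 31 genes fell with Sox2 (median -3.05), against 4.81% of all genes. Against rtTA +DOX none passed the test with Oct4 (median -0.33), where 1.01% of all genes did.

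Cubn, through which vitamin B12 is taken up, read 0.65 and 2.29 with Sox2 and 5.28 and 5.18 with Oct4 (-3.76 ± 0.65 SE; limma adjusted p = 0.015). Dpp4, a peptidase of the brush border, read 2.52 and 3.66 against 5.44 and 5.27 (-2.27 ± 0.38 SE; limma adjusted p = 0.015). Myo1a, the motor protein of the microvillus, read 5.18 and 6.10 against 7.65 and 7.60 (-1.98 ± 0.34 SE; limma adjusted p = 0.015). In all of these the Sox2 arrays lay below both Oct4 arrays, and the cystine transporter gene Slc7a9 had the same order (-3.45 ± 0.57 SE). Treh and Alpi, which encode trehalase and intestinal alkaline phosphatase, were lower by 5.14 and 4.02 on the log2 scale. Sis, the sucrase-isomaltase gene, read 5.12 and 6.20 against 6.18 and 6.65 and did not pass the test (limma adjusted p = 0.39). Lct, the lactase gene, varied within the Oct4 group, at -0.84 and 3.82, and did not pass it either. The list's calls rest on single arrays: none of the 18 remained without Sox2 +DOX replicate 1 or without Oct4 +DOX replicate 2, 1 remained without Oct4 +DOX replicate 1, and all 18 remained without Sox2 +DOX replicate 2. The median ranged from -3.5 to -1.66 over these, and was -2.54 with 0 calls when each group was set against its own control.

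Lipid absorption followed the same direction, with 8 of 28 genes lower and 1 higher with Sox2 (median -2.05). Of all genes tested 4.07% were lower and 2.78% higher. Fabp1, a fatty acid carrier of the enterocyte, read -1.44 on both Sox2 arrays and 2.85 and 4.31 with Oct4, a 32.5-fold difference (limma adjusted p = 0.0058). Cd36, a fatty acid receptor, read -3.55 and -2.66 against 0.13 and 0.30 (-3.33 ± 0.48 SE; limma adjusted p = 0.0074). It rose by 2.67 in Oct4 +DOX against rtTA +DOX (limma adjusted p = 0.047) and did not pass the test in Sox2 +DOX against Sox2 -DOX (-1.32). Creb3l3, a transcription factor of lipid metabolism, and Mttp, which loads lipoproteins, were lower with Sox2 by 2.98 and 2.74. Dhrs9, a retinol dehydrogenase, was the exception, at -0.51 and -0.79 with Sox2 and -3.63 and -3.37 with Oct4 (2.85 ± 0.34 SE; limma adjusted p = 0.0039). Cd36 lost its call without Sox2 +DOX replicate 1 or Oct4 +DOX replicate 2, Mttp also without Oct4 +DOX replicate 1, and Fabp1, Creb3l3 and Dhrs9 kept theirs with each array left out.

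Other groups of metabolic genes varied in their calls, beside 4.07% of all genes tested lower with Sox2 and 2.78% higher. In fatty acid oxidation 4 of 20 genes were lower with Sox2, led by Vnn1, a pantetheinase, at -0.96 and 0.28 against 3.4 and 3.11 (-3.59 ± 0.51 SE; limma adjusted p = 0.007). Acadvl and Acaa1b, enzymes of the oxidation steps, differed by -1.25 and -1.5, and each lost its call without either Sox2 array or Oct4 +DOX replicate 2. In ileal bile acid handling 2 of 14 were lower, Slc51a and Slc51b, the subunits of the bile acid exporter (-1.74 and -2.09), and neither kept its call without Sox2 +DOX replicate 1 or without either Oct4 array. None of 24 cholesterol synthesis genes passed the test (median -0.20). Of 28 cytochrome P450 and conjugation genes, 7 were lower and 3 higher with Sox2. Ugt2a3, a glucuronosyltransferase, read -4.96 and -3.70 against 1.98 and 1.85, 75.7-fold lower with Sox2 (limma adjusted p = 0.0035). It passed the test against neither control. The controls were themselves apart, at -2.63 and -3.27 in Sox2 -DOX and -0.51 and 0.91 in rtTA +DOX. Gsta4 and Gstm3, glutathione transferases, were higher with Sox2 by 3.7 and 2.08. Gstm3 lost its call with any 1 of the 4 arrays left out, and Ugt2a3 and Gsta4 kept theirs. Members of these enzyme families resemble each other in sequence, so their probes may share signal.

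**Figure D3:**
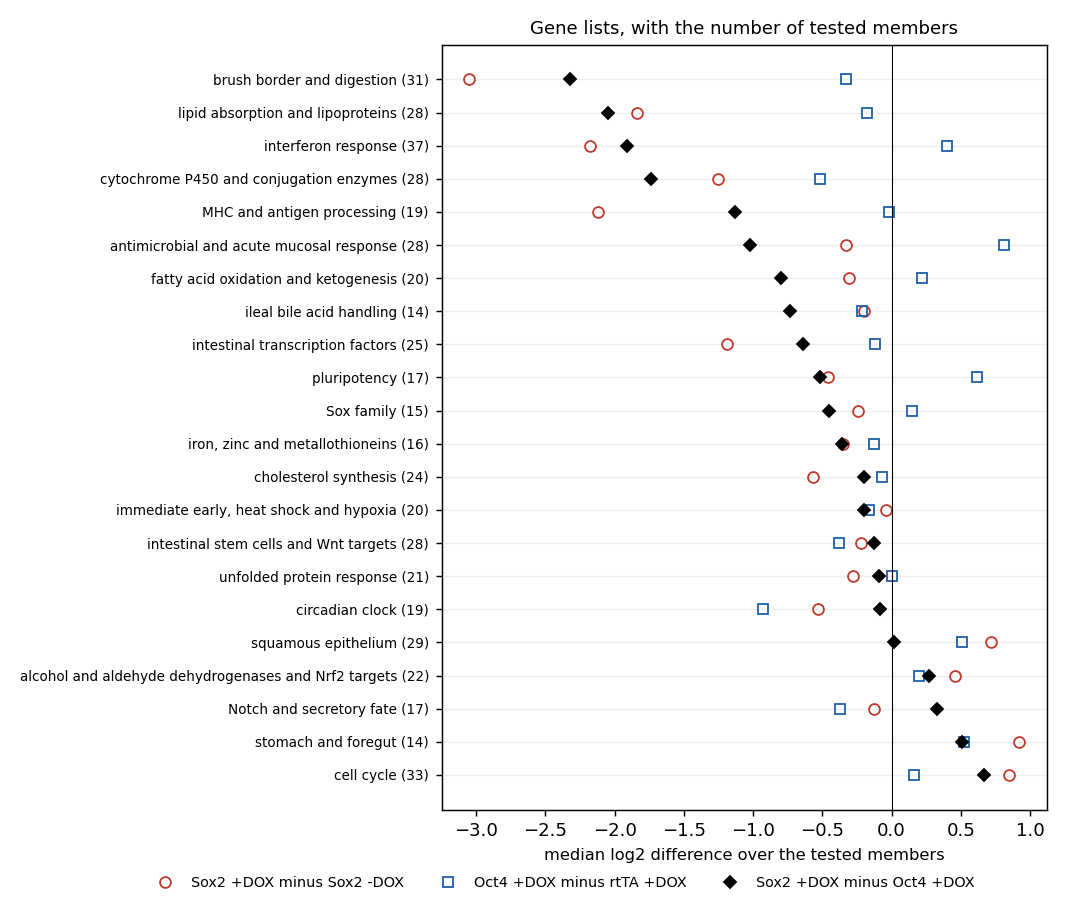
Median log2 difference over the tested members of each gene list (number in brackets) for Sox2 +DOX minus Oct4 +DOX (black), Sox2 +DOX minus Sox2 -DOX (red) and Oct4 +DOX minus rtTA +DOX (blue). Brush border genes have the lowest medians in the direct comparison and against the Sox2 control, at -2.32 and -3.05, and -0.33 for Oct4.

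Metal handling genes differed in both directions, and all 3 of the calls among 16 tested genes held with each array left out. Hamp, which encodes the iron hormone hepcidin, read -0.32 and 0.79 with Sox2 and -4.43 and -3.73 with Oct4 (19.9-fold; limma adjusted p = 0.009). Slc30a10, a manganese exporter, read -6.29 and -5.12 against -0.35 and 1.11 (68.1-fold lower with Sox2; limma adjusted p = 0.002). Slc39a5, a zinc importer, was lower with Sox2 by 3.65. The 3 calls among 16 genes stand beside 6.86% of all genes tested called in the direct comparison. All 3 passed the test within slide 1 as well, in the same direction, and none did in Oct4 +DOX against rtTA +DOX.

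Of 25 genes of the intestinal transcription programme, 3 were lower and 1 higher with Sox2, against 4.07% and 2.78% of all genes tested. The other 21 did not pass the test. Only 4 of the 25 were above 0, and the median was -0.64. Against Sox2 -DOX 7 fell and 2 rose (median -1.19), against 4.81% and 3.03% of all genes tested. None passed the test in Oct4 +DOX against rtTA +DOX (median -0.12). Cdx2 read 4.37 and 5.83 with Sox2 and 5.25 and 6.11 with Oct4, so the groups overlapped (-0.58 ± 0.49 SE; limma adjusted p = 0.50). Klf4, a factor of differentiated epithelium, read 3.30 and 4.46 against 6.04 and 6.34 (-2.30 ± 0.52 SE; limma adjusted p = 0.037), and Prdm1, a repressor, was lower by 1.88. Foxa2, a factor of endoderm, was the higher one, at 2.15 and 1.74 with Sox2 and -0.38 and -0.19 with Oct4 (2.23 ± 0.29 SE; limma adjusted p = 0.0049). It also rose by 2.06 within slide 1. Foxa2 kept its call with each array left out, and Klf4 and Prdm1 lost theirs without Sox2 +DOX replicate 1 or either Oct4 array.

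Of 26 stomach genes on the array 14 were tested, and no group had the others well above background on both arrays. Of the 14, 5 were higher with Sox2 and 1 lower, against 2.78% and 4.07% of all genes tested. The median was 0.51, or 0.27 with genes at background taken at their bound. Beside Lipf and Sox21 the higher ones were Anxa10, an annexin of gastric epithelium, Ctse, the gastric protease cathepsin E, and Tff2, a mucus peptide. Anxa10 read -0.62 and -1.20 against -5.04 and -4.93 (4.07 ± 0.94 SE; limma adjusted p = 0.041) and lost its call with any 1 of the 4 arrays left out. Ctse read -0.92 and -0.42 against -4.13 and -2.90 (2.84 ± 0.44 SE; limma adjusted p = 0.0097). Within slide 1 it rose by 1.09 and did not pass the test (limma adjusted p = 0.15). Tff1, a related gastric peptide, was higher with Oct4, at -3.48 and -2.72 against -4.84 and -4.45 (limma adjusted p = 0.048), and rose by 2.17 against rtTA +DOX. Tff1 and Tff2 also lost their call with any 1 of the 4 arrays left out, and Lipf, Sox21 and Ctse kept theirs.

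Squamous genes were split between the factors, with 4 of 29 higher with Sox2 and 3 higher with Oct4 and a median of 0.02. Of all genes tested 2.78% were higher with Sox2 and 4.07% higher with Oct4. Trp63, the master factor of stratified epithelium, read -3.67 and -4.93 with Oct4 and was not well above background with Sox2, at -8.29 and -8.13 (at least 4.13-fold; limma adjusted p = 0.0029). The call rests on 1 of 3 Trp63 probes, and on the other two 0 arrays were well above background. Sprr2d, a cornified envelope protein, was at least 4.71-fold higher with Oct4, and Dsg3, a desmosomal cadherin, 7.97-fold. Both Trp63 and Sprr2d rose against rtTA +DOX, at least 5.53-fold and at least 6.31-fold. On the Sox2 side stood Krt4 (57.2-fold), Ivl (at least 15.8-fold) and Fabp5 (at least 3.07-fold), a keratin of the oesophagus, involucrin and a fatty acid carrier of skin. The keratin Krt6a read 3.07 and 2.10 with Sox2, -1.82 and -1.51 with Oct4 and -6.97 or below in the controls. It rose in both groups against their controls, at least 373-fold with Sox2 and at least 34.4-fold with Oct4, and was higher with Sox2 by a log2 difference of 4.25 (limma adjusted p = 0.035). Krt4, Krt6a and Ivl were named after their values were seen. Krt6a and Ivl lost their call with any 1 of the 4 arrays left out, and Krt4 without either Sox2 array or Oct4 +DOX replicate 2. Dsg3 lost its call without Sox2 +DOX replicate 1 or Oct4 +DOX replicate 1, and Trp63, Sprr2d and Fabp5 kept theirs with each array left out.

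Of 37 tested interferon-response genes, 17 were lower with Sox2 and none higher, and 20 did not pass the test. Of all genes tested 4.07% were lower and 2.78% higher. All 37 had a difference below 0, and the median was -1.91. The mean level of the list was -1.43 and -0.86 with Sox2, 0.84 and 0.76 with Oct4 and between 0.03 and 0.95 in the controls, so only the Sox2 arrays stood apart. Within slide 1, 18 members fell with Sox2 (median -2.18), and none passed the test in Oct4 +DOX against rtTA +DOX (median 0.40). Of all genes tested 4.81% fell within slide 1 and 1.01% were called in the Oct4 comparison.

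Oas2, a sensor of double-stranded RNA, read -4.80 and -4.74 with Sox2 and 0.14 and -0.96 with Oct4 (20.5-fold; limma adjusted p = 0.0017). Cxcl9, a chemokine induced by interferon gamma, read -3.74 on both Sox2 arrays and -0.52 and -0.11 with Oct4 (10.8-fold; limma adjusted p = 0.0037). Usp18, which restrains the interferon receptor, read -2.60 and -1.76 against 1.15 and 0.83 (8.99-fold; limma adjusted p = 0.0044). These were the 3 members whose calls held with each array left out. Isg15, Rsad2 and Cxcl10 were lower by 3.63, 3.78 and 2.69. Of the 17 calls, 3 remained without Sox2 +DOX replicate 1, 4 without Oct4 +DOX replicate 2, 10 without Oct4 +DOX replicate 1 and 12 without Sox2 +DOX replicate 2, while the median stayed between -2.26 and -1.58. When each group was set against its own control, 5 of the 17 remained and the median was -2.24.

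**Figure D4:**
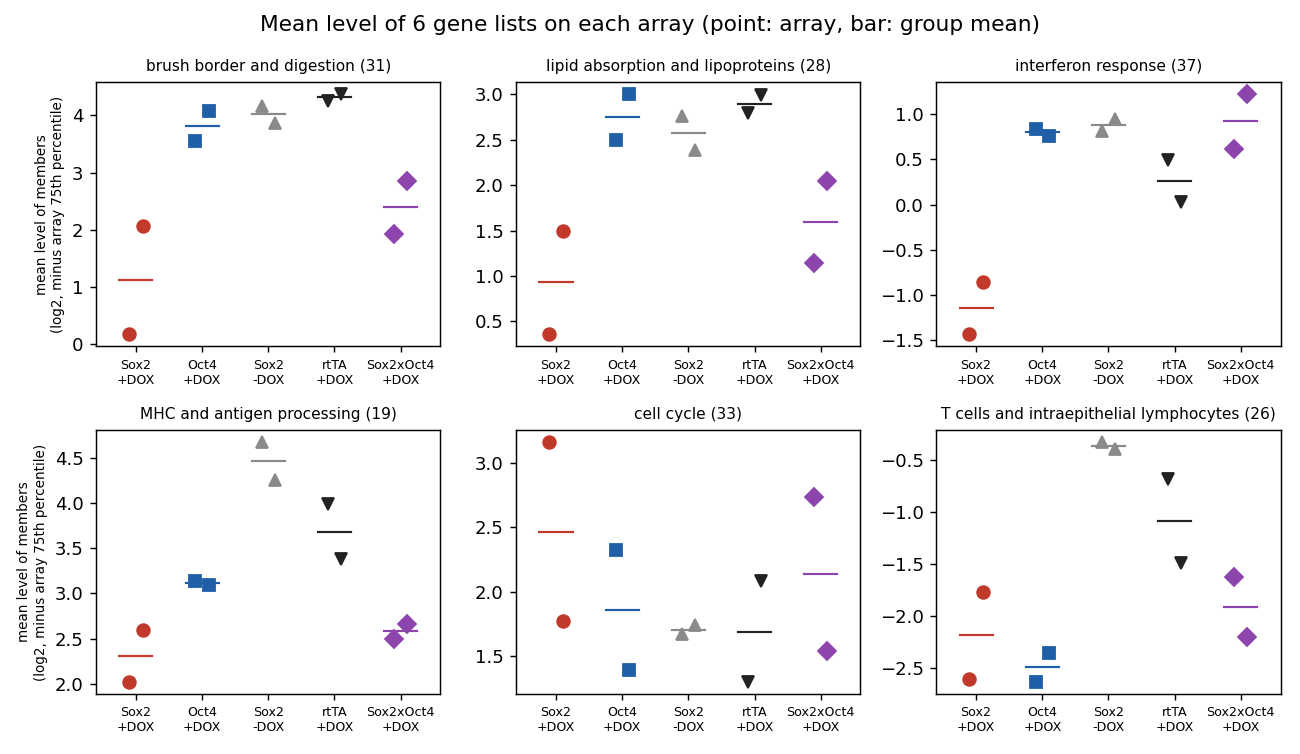
Mean level over the tested members of 6 gene lists on each array (y axis, log2 signal minus the array's 75th percentile; point, array; bar, mean of 2 arrays). Sox2 +DOX lies below Oct4 +DOX for brush border (0.17 and 2.07 against 3.55 and 4.08), lipid and interferon genes, and the groups overlap for cell cycle and T cell genes.

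Antigen presentation genes held calls between the factors and T cell genes held none. Of 19 MHC genes 2 were lower with Sox2 (median -1.13), against 4.07% of all genes tested. These were Tapbp and Psmb10 (-1.67 and -1.15). Tapbp lost its call without Sox2 +DOX replicate 1 or either Oct4 array, and Psmb10 with any 1 of the 4 arrays left out. Against their own controls the groups gave different counts: 13 of the 19 fell with Sox2 (median -2.12), and none passed the test with Oct4 (median -0.02, with 9 above 0). Of all genes tested 4.81% fell in the Sox2 comparison and 1.01% were called in the Oct4 comparison. The mean level of the list was 2.02 and 2.60 with Sox2, 3.14 and 3.09 with Oct4, 4.68 and 4.26 in Sox2 -DOX and 3.99 and 3.38 in rtTA +DOX. Cd74, the invariant chain of MHC class II, was named after its values were seen. It read 3.68 and 4.36 with Sox2, 4.05 and 3.35 with Oct4 and 5.12 to 7.19 in the controls, and its difference of 0.33 ± 0.44 SE did not pass the test (limma adjusted p = 0.68). Of 26 T cell and intraepithelial lymphocyte genes none passed the test in the direct comparison (median 0.26, or 0.20 with genes at background taken at their bound). Their mean level was -2.60 and -1.77 with Sox2, -2.63 and -2.35 with Oct4 and -1.49 to -0.33 in the controls. Prf1, the pore protein of cytotoxic cells, fell by 2.13 on the log2 scale with Sox2 and at least 3.77-fold with Oct4 against their controls (limma adjusted p = 0.030 and 0.028). In these comparisons 10 and 1 of the 26 list members fell, against 4.81% and 0.283% of all genes tested. The list medians were -1.7 and -1.28.

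Mucosal defence genes moved individually. Reg1, a secreted lectin, read 5.37 and 3.70 with Sox2 and -0.12 and -0.63 with Oct4 (30.1-fold; limma adjusted p = 0.0027). Reg3a, a lectin that binds bacteria, had the opposite order, at -2.37 and -2.41 against 2.31 and 3.15 (34.7-fold; limma adjusted p = 0.00068). Both kept their call with each array left out and passed the test within slide 1. Saa1, Saa2 and Saa3, the serum amyloid genes, were lower with Sox2 by 4.21, 4.30 and 3.95. Saa1 and Saa2 are near-identical. Saa2 read 6.46 and 7.08 in Sox2 -DOX and 2.16 and 3.99 in rtTA +DOX, and neither gene passed the test between the controls (limma adjusted p = 0.45). In all, 5 of 28 members were lower with Sox2 and 2 higher, the other being the chemokine Ccl28 (2.76; limma adjusted p = 0.047). Of all genes tested 4.07% were lower and 2.78% higher. Saa1 and Saa2 lost their call without Sox2 +DOX replicate 1 or either Oct4 array, Saa3 without either Sox2 array or Oct4 +DOX replicate 1, and Ccl28 without Sox2 +DOX replicate 2 or either Oct4 array.

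Calls among lineage markers stand beside 2.78% of all genes tested higher with Sox2 and 4.07% lower. Proliferation genes were above 0 at 30 of 33 members with a median of 0.67, but only the cyclin Ccnd2 passed the test (1.57; limma adjusted p = 0.047), and the median was -0.06 without Sox2 +DOX replicate 1. The stem cell marker Lgr5 read 1.60 and -0.14 with Sox2 and -0.83 and -1.56 with Oct4 and did not pass (limma adjusted p = 0.070). Of 28 genes of the stem cell and Wnt list, 3 were lower with Sox2, 12 were above 0 and the median was -0.13. The 3 were the Wnt targets Sp5 and Apcdd1 and the crypt factor Ascl2, at differences of -2.13, -2.09 and -1.88. The enteroendocrine list was above 0 at 11 of 29 members, with a median of -0.26. Its called genes went both ways. The endocrine factors Neurod1 and Insm1 and the prohormone convertase Pcsk1 were higher with Sox2, by 3.38, 2.66 and 1.64, and neurotensin (Nts) was lower by 2.05. These were 4 of 29 enteroendocrine genes, and no single one kept its call with each array left out. Rgs13, the 1 called gene of 16 tested tuft cell genes, read 0.90 and 1.22 with Oct4 and -2.60 and -1.94 with Sox2 (-3.33 ± 0.32 SE; limma adjusted p = 0.0015). It rose by 2.77 against rtTA +DOX. The tuft cell list had a median of -1.5 with 3 members above 0. Its mean level was -3.01 and -2.28 with Sox2 and split the Oct4 arrays, at -2.4 and -0.53. None of 18 goblet cell genes passed the test. Car4, a carbonic anhydrase, was the 1 called gene of 7 on the colon list (-5.72). Car9, from the list of immediate early, heat shock and hypoxia genes, was higher with Sox2 (1.98), and 1 of the 20 genes of that list was lower. Of these, Rgs13, Car4 and Sp5 kept their call with each array left out. Insm1 and Pcsk1 lost theirs with any 1 of the 4 arrays left out, and Neurod1 without either Oct4 array. Ascl2 and Car9 lost theirs without Sox2 +DOX replicate 1 or Oct4 +DOX replicate 2, Nts without Sox2 +DOX replicate 1 or either Oct4 array, Apcdd1 without either Sox2 array or Oct4 +DOX replicate 2, and Ccnd2 without either Sox2 array or Oct4 +DOX replicate 1.

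Markers of tissue outside the epithelium moved with the comparison, and their part in the results above was not tested. Their calls stand beside 4.07% of all genes tested lower with Sox2 and 2.78% higher. Adipocyte genes had a median of -2.0 over 15 genes, or -1.85 with genes at background taken at their bound, near the medians of the brush border and interferon lists. Their mean level was -2.54 and -2.25 with Sox2 and -0.11 and -0.84 with Oct4. Lpl and Lipe were lower with Sox2 by 3.25 and 1.85. Lpl lost its call with any 1 of the 4 arrays left out, and Lipe without Sox2 +DOX replicate 1 or Oct4 +DOX replicate 2. Genes of enteric neurons and glia were above 0 at 1 of 18 with a median of -1.25 and 1 call, and B cell and plasma cell genes at 3 of 21 with a median of -0.9 and 1 call, Prdm1. Smooth muscle genes were above 0 at 4 of 24 with a median of -0.86 and a mean level of 0.04 and -0.27 with Sox2 and 0.30 and 1.09 with Oct4. Fibroblast genes were above 0 at 2 of 24 with a median of -0.55 and no call. Endothelial genes had a median of -0.08 over 16. Among macrophage and granulocyte genes, Cd68 was higher with Sox2 (2.21) and Epx, of eosinophils, at least 3.34-fold lower. Cd68 lost its call without Sox2 +DOX replicate 1 or either Oct4 array, and Epx without Sox2 +DOX replicate 1 or Oct4 +DOX replicate 1.

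The single largest difference was in a Paneth cell gene. Defa21, an alpha-defensin (probe at mm8, chromosome 8, 22521076 to 22521135), read 7.66 and 7.04 with Sox2 and was not well above background on the Oct4 arrays, at -8.34 and -7.97. The Sox2 level was at least 10300-fold higher (15.51 ± 0.61 SE; limma adjusted p = 6.2e-05). On the 6 arrays of the other groups the gene read 6.43 to 8.35, so that only the Oct4 arrays had it at background. No other gene of the 15 tested Paneth cell genes was called, and the median of the list was -0.16. This 1 call of 15 stands beside 6.86% of all genes tested. Defcr-rs10, a related defensin sequence, split the Sox2 arrays themselves, at -8.31 and 7.26. It read -8.02 and -7.43 in Sox2 -DOX and 6.79 to 8.30 on the other arrays. Alpha-defensin genes are near-identical, so probes may read more than 1 of them.

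Genes of the sex chromosomes split the Oct4 arrays. Eif2s3y, on the Y chromosome, read 1.78 on Oct4 replicate 1 and -7.86 on replicate 2, and Xist, which is transcribed from the inactive X chromosome, read -6.80 and 2.62. Both Sox2 +DOX arrays and both Sox2 -DOX arrays read as Oct4 replicate 1 did, and the rtTA and double-transgenic arrays as replicate 2 did. So Oct4 +DOX against rtTA +DOX compared arrays unlike in these genes, and Sox2 +DOX against Sox2 -DOX compared arrays alike in them. None of the 5 sex-linked genes was called. Without Oct4 replicate 2, so over arrays alike in these genes, 421 genes were called, and 379 of them were among the 1306.

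**Figure D5:**
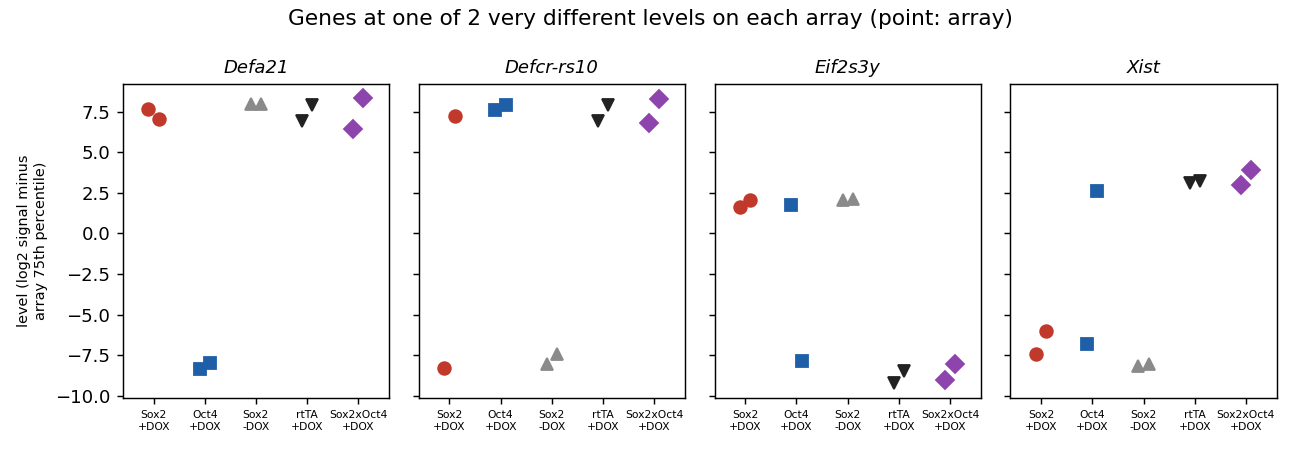
Level of 4 genes on each array (y axis, log2 signal minus the array's 75th percentile; 1 point per array). Defa21 is low on the 2 Oct4 +DOX arrays only, and Defcr-rs10 differs between the 2 Sox2 +DOX arrays. Eif2s3y and Xist differ between the 2 Oct4 +DOX arrays.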

How the data were processed

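RNA of adult mouse ileum was hybridised to one-colour Agilent arrays, 2 for each of 5 groups. The deposited scanner files hold a processed intensity per spot that Feature Extraction made without normalization between arrays, per the file headers, in versions 9.5.3.1 (slide 1), 10.7.1.1 (slide 2) and 10.7.3.1 (slide 3). The submitters' processing notes name 9.1. Slide 3 files give spot medians and list no background settings, so this can affect Oct4 +DOX.

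Flagged spots (45 to 65 of 45018 per array) and controls were left out. The log2 signal minus the array's 75th percentile (a signal of 544.2 to 1612.8) was used. A probe was kept if both arrays of 1 group or more had it well above background (63.5 to 70.5% of probes per array were). RefSeq tables named 80.3% of 41143 probes. Each gene took its probe of highest mean. Where a group was not well above background, a fold is "at least" that over the array's lowest signal well above background. Group means of all 10 arrays were fitted with limma 3.58.1 in R 4.3.3 (5 residual degrees of freedom), with Benjamini-Hochberg adjustment, tested on simulated data. Python 3.11.15 with pandas 2.3.3 made the tables.

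Members and gene lists were chosen with earlier results of these data known. The naming rule took Pou5f1, Sox2, Sox21, Nanog and Cdx2, the 12 largest called differences in each direction without overlap, and up to 4 members per list by p. Others named from a list beyond these were chosen after their values were seen. Alternatives were normexp with quantile normalization, quantile or median scaling, no filter, a floor, all probes, a variance trend, the 4 arrays alone, a replicate block, arrays left out and a control-anchored difference.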

Additional observations from a re-analysis of the deposited data

How the results depend on the processing

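All 104 called genes that were named and refitted kept their direction in the direct comparison under every alternative run, and 26 kept their call under all of them. The count of 1306 fell to 232 when each group was set against its own control (Sox2 +DOX minus Sox2 -DOX, less Oct4 +DOX minus rtTA +DOX), which adds the controls' spread, and to 370 with only the 4 arrays compared. It ranged from 352 to 1082 with 1 array left out, where a lone array is taken to vary as other groups do. Other settings gave 892 to 1670. For Sox2 +DOX against Sox2 -DOX, 1494 calls became 933 without the filter, 640 with only those 4 arrays and 165 to 1729 with 1 array left out. For Oct4 +DOX against rtTA +DOX, 192 became 111 with normexp and quantile normalization and 35 to 191 with 1 array left out. The controls (rtTA +DOX against Sox2 -DOX) gave 0 calls with limma, with 1069 genes at an unadjusted p under 0.05, and 4 with median scaling, 1 with a floor, 2 with a variance trend, 13 with only those 4 arrays and 0 with each array left out. With the replicate number as a block, 1364 genes were called in the direct comparison, of which 1177 were among the 1306, and 2 between the controls. Nothing in the labels pairs the replicate numbers, and deviations of equal numbers correlated at 0.173. Reversed and uncalled were Cdx2 without Sox2 +DOX replicate 1 (0.15, with -1.31 as the lowest with 1 array left out), Defcr-rs10 and Lct against their own controls (6.86 and 1.87), and Cd74, at -1.20 against the controls, -0.01 without Sox2 +DOX replicate 2 and -0.03 without Oct4 +DOX replicate 2, with 0.68 as the highest with 1 array left out. The scaling moved the median difference of all genes from -0.057 to 0.028. Genes near background have bounds only, and 2 arrays a group limit every value.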
